A study of Mus musculus with 4 samples.

Results

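Radial glia are the neural stem cells of the embryonic cortex, and 10 genes that mark them were followed here in cortex of mouse embryos with and without a conditional deletion of Prdm16, a zinc-finger transcriptional regulator that radial glia express. The genes were taken by symbol: Pax6, Sox2, Sox9, Emx2 and Nr2e1 as 5 transcription factors, and Nes, Vim, Fabp7, Slc1a3 and Mfge8 as 5 structural and metabolic genes. All 10 were listed in both deposited tables, which shared 19968 genes, and all 10 were among the 16658 genes that passed the filter on low counts. RNA came from dissected cerebral cortex of C57BL/6 embryos at embryonic day 15, from Prdm16cKO embryos (cKO) and from Prdm16fl/fl embryos (floxed), so the controls carried the floxed alleles too. The labels name neither the Cre line nor the cells in which it acts. The tables held 2 cKO libraries, called cKO 1 and cKO 2, and 1 floxed library, with 19514882, 18579178 and 17839662 counts. Levels are CPM, counts scaled to the library total, and every floxed level is that of 1 library. No source says whether the cKO libraries came from separate embryos. What the p-values weigh is thus the spread of these libraries, and that spread may be technical.

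Radial glia line the ventricle and send a long fibre to the pial surface. They divide to renew themselves and to give rise to intermediate progenitors and neurons, which climb along the fibre. A network of transcription factors keeps them in the progenitor state and sets their regional identity, while intermediate filaments, a lipid-binding protein and a glutamate transporter of the astroglial lineage give them the traits by which they are recognised. In this tissue the same proteins are textbook markers of the ventricular zone.

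The structural and metabolic genes lay further from floxed than most of the transcription factors did. Vim, Fabp7, Nes and Slc1a3 were higher than floxed in both cKO libraries beyond counting error, Mfge8 was lower in both, and among the factors Sox9 alone was higher in both. For Pax6 and Emx2 the counting interval of the ratio held 1 in either library. No member passed edgeR's quasi-likelihood test after Benjamini-Hochberg adjustment over all genes (adjusted p = 1 for each). That test called 1 of all 16658 genes, or 0.006%, and the called gene, Ptx3, is no member.

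**Figure D1:**
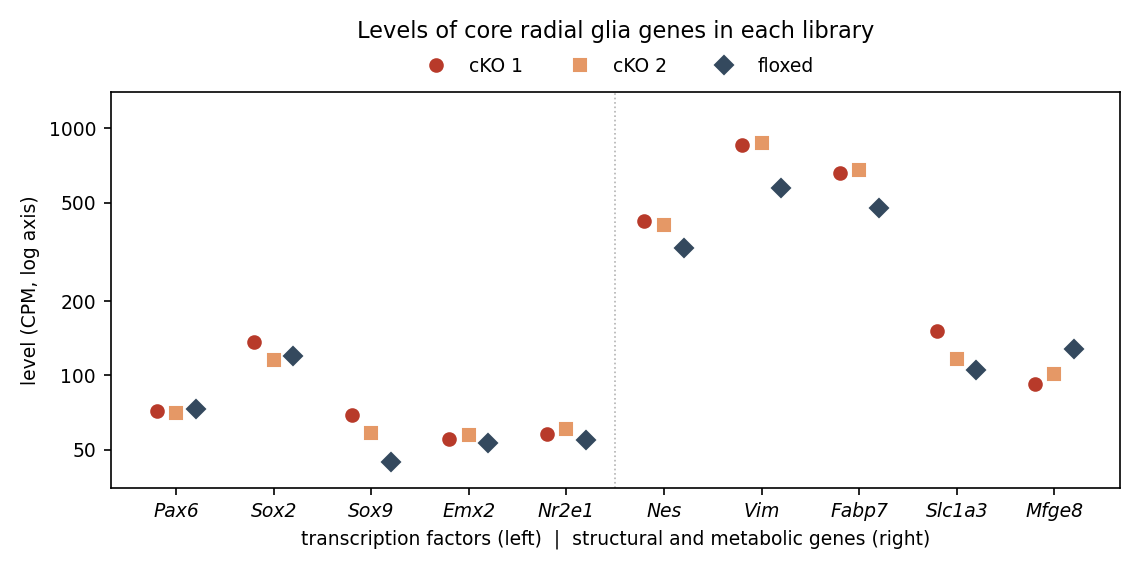
Level of each gene in each library, in CPM on a log axis, with cKO 1, cKO 2 and floxed from left to right as single points. The cKO points of Vim (858 and 874 CPM) and Fabp7 (661 and 679 CPM) lie together above floxed, those of Pax6 lie beside it, and those of Mfge8 lie below it.

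The stretches of genome around the start sites of 4 members are shown because these genes cover the range of the results, from the largest ratio to floxed that both libraries shared (Vim and Fabp7) through none (Pax6) to a lower level (Mfge8). Each runs from 250 bases before to 50 bases after a RefSeq start site (GRCm38.p6), and capitals mark matches, on either strand, to 4 motifs: CATTGT for SOX factors, TGGGAA for RBPJ (the DNA-binding partner of Notch), GGGCGG for a GC box and TATAAA for a TATA box.
Vim, chr2:13574061-13574360, plus strand: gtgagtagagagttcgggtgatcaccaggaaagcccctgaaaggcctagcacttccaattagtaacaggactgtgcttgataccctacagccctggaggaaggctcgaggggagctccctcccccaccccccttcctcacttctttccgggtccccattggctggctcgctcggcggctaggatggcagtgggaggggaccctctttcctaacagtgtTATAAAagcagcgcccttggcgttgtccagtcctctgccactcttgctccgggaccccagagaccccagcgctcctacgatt
Fabp7, chr10:57784673-57784972, plus strand: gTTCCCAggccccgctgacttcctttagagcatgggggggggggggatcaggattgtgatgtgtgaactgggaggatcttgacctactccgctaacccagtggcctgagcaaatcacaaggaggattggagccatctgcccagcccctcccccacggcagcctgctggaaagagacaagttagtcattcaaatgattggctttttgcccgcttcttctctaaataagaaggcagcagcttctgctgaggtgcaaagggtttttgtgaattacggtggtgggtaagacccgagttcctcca
Pax6, chr2:105668646-105668945, plus strand: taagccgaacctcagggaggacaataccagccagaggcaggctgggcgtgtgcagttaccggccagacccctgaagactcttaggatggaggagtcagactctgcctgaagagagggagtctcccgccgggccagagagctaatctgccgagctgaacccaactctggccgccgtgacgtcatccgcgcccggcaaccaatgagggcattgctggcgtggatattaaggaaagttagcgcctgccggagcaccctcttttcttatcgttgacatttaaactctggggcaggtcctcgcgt
Mfge8, chr7:79149011-79149310, minus strand: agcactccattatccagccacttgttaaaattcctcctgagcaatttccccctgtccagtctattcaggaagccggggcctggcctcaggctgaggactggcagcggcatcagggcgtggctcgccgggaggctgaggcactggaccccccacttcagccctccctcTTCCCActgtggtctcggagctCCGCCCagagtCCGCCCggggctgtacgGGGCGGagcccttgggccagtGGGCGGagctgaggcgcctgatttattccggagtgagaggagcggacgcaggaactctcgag

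The Vim window held a TATA box that starts 32 bases before the start site. The Fabp7 window held the RBPJ letters once, 249 bases before the start site, and the Mfge8 window held a GC box 4 times and the RBPJ letters once. No motif matched in this Pax6 window or in that of a second Pax6 start site. Windows were found for 9 of the 10 members. The RBPJ letters were in windows of 4 of these (Emx2, Fabp7, Mfge8 and Nr2e1) and in 25.6% of all 32851 windows. The GC box was in 5 (Emx2, Mfge8, Nes, Slc1a3 and Sox2) and in 35.7% of all. The TATA box letters were in 2 (Slc1a3 and Vim) and in 13.6% of all. In Slc1a3 they were on the other strand, 161 bases before the start site. The SOX letters were in windows of 0 members and in 12.6% of all. These matches describe the letters and are no evidence of binding.

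Among the transcription factors, Pax6 encodes the paired-box and homeodomain factor that defines dorsal cortical radial glia (ENSMUSG00000027168, GRCm38 chromosome 2, 105668900 to 105697364, plus strand). It had 71.4 CPM in cKO 1 and 70.3 CPM in cKO 2, against 73.0 CPM in floxed. The 3 libraries stood close together, and the ratio to floxed was between 0.906 and 1.06 in cKO 1 and between 0.892 and 1.04 in cKO 2 (exact 95% intervals, counting error only). The fitted log2 fold was -0.04 (SE 0.14).

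Emx2, a homeodomain factor that sets caudal and medial identity in the cortex (chromosome 19, 59458372 to 59465357, plus strand), had 55.0 and 57.3 CPM in cKO, against 53.0 CPM in floxed. Nr2e1, the orphan nuclear receptor also called Tlx that maintains neural stem cells (chromosome 10, 42561963 to 42583632, minus strand), had 58.0 and 60.4 CPM in cKO, against 54.7 CPM in floxed. Both genes had their highest level in cKO 2 and their lowest in floxed, by small steps. The Nr2e1 ratio in cKO 2 was 1.10, with an interval of 1.01 to 1.20 that just left 1, and its interval in cKO 1 (0.972 to 1.16) held 1. The fitted log2 folds were 0.08 (SE 0.14) for Emx2 and 0.11 (SE 0.14) for Nr2e1.

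Sox2, the SoxB1 factor of neural stem cells (chromosome 3, 34650405 to 34652461, plus strand), had 137 CPM in cKO 1 and 116 CPM in cKO 2, against 119 CPM in floxed. The cKO libraries lay on either side of floxed. Their ratios were 1.15 (1.08 to 1.21) and 0.971 (0.914 to 1.03), and the fitted log2 fold was 0.08 (SE 0.15). Without cKO 1 the direction turns, at a log2 ratio of -0.04.

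Sox9, a SoxE factor that induces and maintains neural stem cells and later promotes gliogenesis (chromosome 11, 112782224 to 112787760, plus strand), stood apart from the other factors. It had 68.9 CPM in cKO 1 and 58.3 CPM in cKO 2, against 44.4 CPM in floxed. Both cKO libraries were above floxed, at ratios of 1.55 (1.42 to 1.70) and 1.31 (1.20 to 1.44). In cKO it averaged 63.6 ± 7.52 CPM (SD, n = 2), for a fitted log2 fold of 0.52 (SE 0.17). Per count of Sox2 in the same library there were 0.504 and 0.503 counts of Sox9 in cKO 1 and cKO 2, against 0.372 in floxed. The cKO libraries thus had nearly the same ratio although the level of each gene differed between them. No interval was computed for this ratio. Another ratio differed between them, with 0.229 and 0.171 counts of Slc1a3 per count of Fabp7 in cKO, against 0.220 in floxed.

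Among the structural genes, Vim encodes vimentin, the intermediate filament of radial fibres (ENSMUSG00000026728, chromosome 2, 13573927 to 13582826, plus strand). It had 858 CPM in cKO 1 and 874 CPM in cKO 2, against 572 CPM in floxed, on 16751, 16237 and 10211 counts. Both cKO libraries were above floxed and within a few percent of each other. The ratios were 1.50 (1.46 to 1.54) and 1.53 (1.49 to 1.57), and cKO averaged 866 ± 11.0 CPM (SD, n = 2). The fitted log2 fold of 0.60 (SE 0.14) was the largest of the members.

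Nes encodes nestin, which forms filaments together with vimentin (chromosome 3, 87971078 to 87980451, plus strand). It had 422 and 406 CPM in cKO, against 329 CPM in floxed. The 1 floxed value lay below both cKO values, and the cKO mean was 414 ± 11.4 CPM (SD, n = 2). Floxed lay outside the cKO pair, on one side or the other, in every member except Sox2. For Pax6 and Emx2 that difference was within counting error. How often floxed lay outside the pair over all genes was not counted. The ratios of 1.28 (1.24 to 1.32) and 1.23 (1.19 to 1.27) were below those of Vim, so that counts of Nes per count of Vim were 0.491 and 0.464 in cKO, against 0.575 in floxed.

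Fabp7, the brain lipid-binding protein that carries fatty acids in radial glia (ENSMUSG00000019874, chromosome 10, 57784881 to 57788450, plus strand), had 661 CPM in cKO 1 and 679 CPM in cKO 2, against 477 CPM in floxed. As for Vim, the cKO libraries lay close together and above floxed. The ratios were 1.39 (1.35 to 1.43) and 1.42 (1.38 to 1.46), and cKO averaged 670 ± 12.3 CPM (SD, n = 2), for a fitted log2 fold of 0.49 (SE 0.14).

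Slc1a3 encodes GLAST, the glutamate transporter of radial glia and astrocytes (chromosome 15, 8634124 to 8710764, minus strand), and its cKO libraries disagreed in size. It had 152 CPM in cKO 1 and 116 CPM in cKO 2, against 105 CPM in floxed. Most of the excess over floxed was in cKO 1, with a ratio of 1.45 (1.37 to 1.54), while the ratio in cKO 2 was 1.11 (1.04 to 1.18). The log2 ratios differed by 0.38 between the cKO libraries, more than in 94.5% of the 5677 genes of at least 40 CPM over the 3 libraries. The fitted log2 fold was 0.36 (SE 0.18). In cKO 2 alone the log2 ratio was 0.15, and in cKO 1 alone 0.53.

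Mfge8, a secreted glycoprotein also called lactadherin that binds phosphatidylserine and integrins (ENSMUSG00000030605, chromosome 7, 79133768 to 79149060, minus strand), was the one member lower in both cKO libraries beyond counting error. It had 92.5 CPM in cKO 1 and 102 CPM in cKO 2, against 128 CPM in floxed. Both cKO values were below the 1 floxed value, with ratios of 0.721 (0.678 to 0.767) and 0.792 (0.745 to 0.842). In cKO it averaged 97.1 ± 6.45 CPM (SD, n = 2), for a fitted log2 fold of -0.40 (SE 0.14). Counts of Mfge8 per count of Vim were 0.108 and 0.116 in cKO, against 0.224 in floxed.

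**Figure D2:**
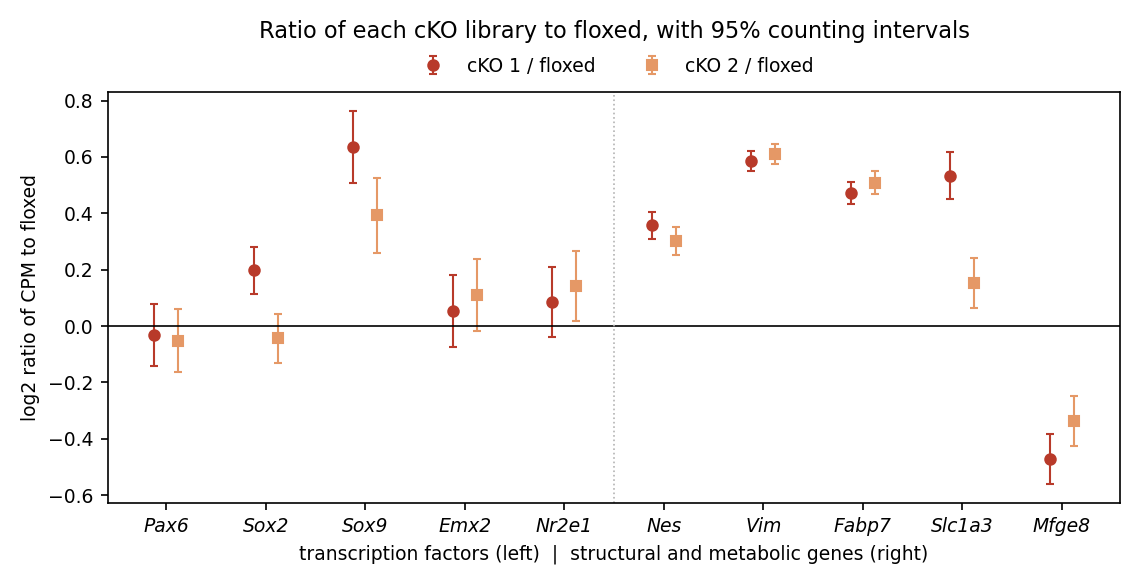
Log2 ratio of the CPM of cKO 1 (circles) and cKO 2 (squares) to floxed for each gene, with exact 95% intervals that cover counting error only; the line at 0 is the floxed level. Vim, Fabp7, Nes, Slc1a3 and Sox9 lie above 0 with both intervals, Mfge8 lies below it, and the cKO libraries stand furthest apart in Slc1a3, by 0.38.

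Read against all genes, 6 members were higher beyond counting error in cKO 1, where 17.9% of tested genes were, and 1 was lower, where 16.1% were. In cKO 2, 6 members were higher, against 16.1% of tested genes, and 1 was lower, against 24.6%. In both libraries 5 were higher and 1 was lower, against 5.18% and 7.55% of tested genes. Since abundant genes leave their counting intervals more readily, the same shares are given for genes of at least 40 CPM. That limit was set after the members' levels were seen. Of these genes, 8.26% were above floxed and 13.8% below it in both libraries. Vim, Fabp7 and Nes averaged 768, 605 and 385 CPM over the 3 libraries, far above the limit, so for them the shares allow for abundance only in part. The comparisons share the floxed library, so a deviation of that library alone would appear in both.

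The median log2 ratio of the members was 0.28 in cKO 1 and 0.15 in cKO 2, where the medians over all tested genes were 0.01 and -0.04. Ranked by mean log2 ratio among the genes of at least 40 CPM, Vim stood at percentile 99.8, Sox9 at 99.7, Fabp7 at 99.6, Slc1a3 at 99.0 and Nes at 98.9. Mfge8 stood at percentile 1.20 and Pax6 at 38.9. In 8 of 10 members the mean log2 ratio to floxed exceeded the gap between the cKO libraries, as it did in 39.1% of the genes of at least 40 CPM. The exceptions were Sox2 and Slc1a3.

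In edgeR's test 5 members had an unadjusted p under 0.05, against 255 of all tested genes, or 1.53%. They were, from the smallest p, Vim, Fabp7, Sox9, Mfge8 and Nes. DESeq2 and limma-voom also called 0 members, with 4 and 5 members at an unadjusted p under 0.05, and the smallest adjusted p of any member was 0.164, for Vim in DESeq2. The test has 1 residual degree of freedom for each gene, beside 6.69 prior degrees of freedom borrowed from all genes. The SEs and p-values thus rest largely on a spread pooled over genes, not on each gene's own. The cKO libraries alone gave that spread, on the assumption that floxed varies as much.

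Between the cKO libraries themselves, 6 members differed beyond counting error, as did 59.8% of the genes of at least 40 CPM. Sox2 (ratio of cKO 1 to cKO 2 1.18), Sox9 (1.18), Nes (1.04) and Slc1a3 (1.30) were higher in cKO 1. Fabp7 (0.974) and Mfge8 (0.910) were lower in cKO 1. Vim, at 0.982 (0.961 to 1.004), had an interval that held 1.

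The authors' deposited tables compare the same libraries in pairs, and their mark of significance does not follow adjusted p alone. There the log2 fold of Vim was 0.58 for cKO 1 and 0.61 for cKO 2, with adjusted p-values of 1.19e-232 and 5.5e-250 that rest on 1 library a side. The authors' deposited tables mark no member as significant, among 495 and 1387 genes so marked.

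The contrast between the classes was next taken within each library, where the scaling to library totals cancels. Summed counts of the structural and metabolic members per count of the factors were 5.60 in cKO 1 and 6.01 in cKO 2, against 4.68 in floxed. Without Vim, the member with the most counts, they were 3.40 and 3.60 in cKO, against 3.02 in floxed. The median log2 ratio to floxed was 0.47 and 0.30 for the structural and metabolic members and 0.08 and 0.11 for the factors.

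Of the 25 pairs of a structural or metabolic member with a factor, the structural or metabolic member had the higher ratio to floxed in 16 in cKO 1, in 18 in cKO 2 and in 16 in both. The 16 in both are the pairs without Mfge8 and Sox9, so the members as a whole did not divide by class. Mfge8 lay below every factor in both libraries. Sox9 lay above every structural and metabolic member in cKO 1, while in cKO 2 Vim and Fabp7 lay above Sox9, by 0.22 and 0.12 on the log2 scale. Per count of Pax6, there were 12.03 and 12.42 counts of Vim in cKO, against 7.84 in floxed. For Fabp7 these were 9.26 and 9.65 in cKO, against 6.53 in floxed, and for Mfge8 1.30 and 1.44 in cKO, against 1.76 in floxed.

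**Figure D3:**
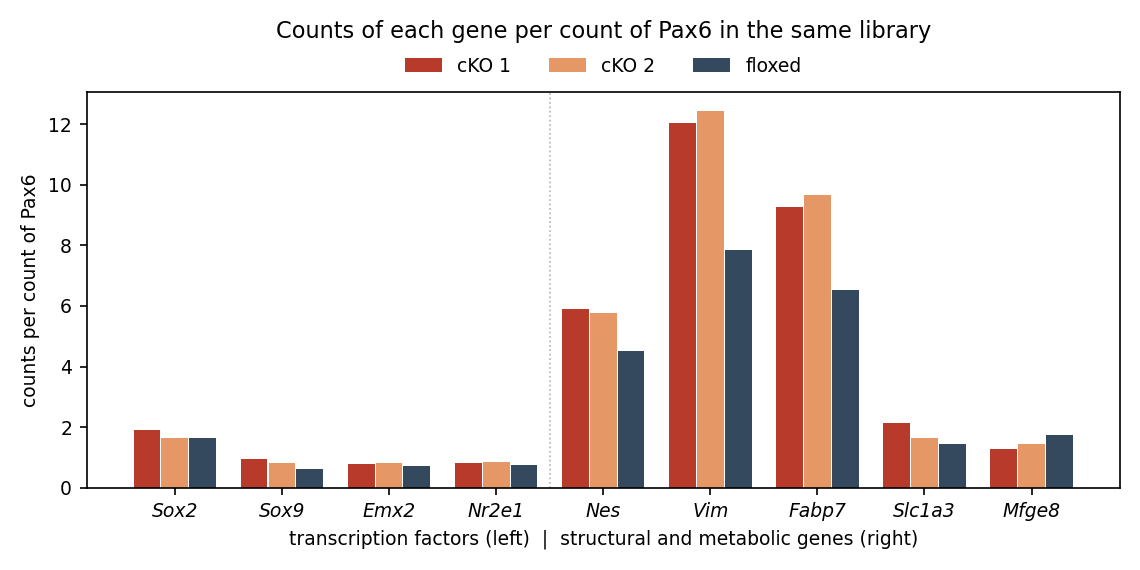
Counts of each gene per count of Pax6 in the same library, with bars for cKO 1, cKO 2 and floxed from left to right. Vim reaches 12.03 and 12.42 in cKO against 7.84 in floxed, and Mfge8 is the one gene whose floxed bar is the highest, at 1.76.

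Levels were compared between genes per kilobase of exon, over all annotated exons of a gene. Fabp7 was first, at 536 ± 9.85 CPM per kilobase in cKO (SD, n = 2) and 381 in floxed, and Vim second, at 183 ± 2.32 in cKO and 121 in floxed. Nes (64.5 ± 1.78 in cKO, 51.3 in floxed) and Sox2 (61.4 ± 7.23 in cKO, 58.0 in floxed) followed and were not apart beyond the spread of the cKO libraries. Mfge8 had 20.7 ± 1.37 CPM per kilobase in cKO and 27.3 in floxed, and Emx2 18.7 ± 0.538 in cKO and 17.7 in floxed. Nr2e1, Slc1a3 and Sox9, at 15.95 ± 0.454, 15.7 ± 2.91 and 15.4 ± 1.82 CPM per kilobase in cKO, did not differ beyond that spread. Pax6 was last, at 6.06 ± 0.0625 in cKO and 6.24 in floxed, with 11694 annotated exon bases, the most of the members.

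The TruSeq RNA kit named in the labels was taken not to mark strand, so overlapping transcripts may bear on some of these counts. The antisense gene Emx2os shares 264 bases, or 8.79%, of the exon bases of Emx2 and had 7.69 and 7.86 CPM in cKO, against 8.74 CPM in floxed. Without strand, reads from the shared bases cannot be assigned, and how they were counted is not stated. Sox2 lies within the span of the long noncoding gene Sox2ot on the same strand and shares 0 exon bases with it. Sox2ot had 51.0 and 42.1 CPM in cKO, against 38.3 CPM in floxed. Like Sox2 it was highest in cKO 1.

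Other radial glia genes were set beside the members in a list split the same way. Of 10 further transcriptional regulators, 2 were higher in both libraries beyond counting error (Sox3 and Hopx), 0 were lower in both, and 1, Emx1, went in opposite directions. Their median log2 ratios were 0.12 in cKO 1 and 0.18 in cKO 2. Of 12 further genes that are not transcription factors, 2 were higher in both (Ttyh1 and Tnc), 0 were lower in both and 3 went in opposite directions (Msi1, Cdh2 and Notch2), with medians of 0.10 and 0.00. In this list the median of these 12 genes was below that of the regulators in each cKO library. Among the members, the structural and metabolic genes had the higher median. Over all tested genes, 5.18% were higher in both libraries, 7.55% were lower in both and 5.8% went in opposite directions. In edgeR's test 0 genes of either list passed after adjustment, and 0 had an unadjusted p under 0.05.

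Among these, Tnc, the extracellular matrix glycoprotein tenascin C, had 133 and 122 CPM in cKO, against 108 CPM in floxed. Hopx, a homeodomain protein of outer radial glia in human cortex, had 12.3 and 14.6 CPM in cKO, against 9.02 CPM in floxed. The Notch targets Hes1 (21.0 and 23.6 CPM in cKO, 18.7 CPM in floxed) and Hes5 (11.9 and 15.6 CPM in cKO, 11.3 CPM in floxed) were above their counting error in cKO 2 alone. The endothelin receptor gene Ednrb had 56.8 CPM in cKO 1 and 34.8 CPM in cKO 2, against 35.3 CPM in floxed. Ednrb was above floxed in cKO 1 alone, while Slc1a3 was above it in both, mostly in cKO 1.

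Of 13 relatives of the members by family, 4 were higher in both libraries beyond counting error and 0 lower in both. Of all tested genes 5.18% and 7.55% were. Some relatives were counted in another list too, such as Sox3 among the regulators and Slc1a2 among the astrocyte markers. Fabp5, another fatty-acid binding protein gene, had 480 and 463 CPM in cKO, against 430 CPM in floxed. Slc1a2, the astrocytic glutamate transporter gene GLT-1, had 55.1 and 61.4 CPM in cKO, against 49.3 CPM in floxed, highest in cKO 2 where Slc1a3 was highest in cKO 1. Edil3, which shares the domain plan of Mfge8, had 42.8 and 43.3 CPM in cKO, against 38.2 CPM in floxed, on the other side of floxed from Mfge8. Sox3, a SoxB1 factor like Sox2, had 59.6 and 68.0 CPM in cKO, against 53.1 CPM in floxed. The astrocytic filament gene Gfap was near the floor, at 1.59 and 1.99 CPM in cKO and 2.69 CPM in floxed.

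Among 4788 genes of at least 50 CPM, those whose pair of log2 ratios lay nearest to that of Vim were Hbb-bt, Acot1, Pgpep1, Ptpru and Cdo1, at distances of 0.08 to 0.15. Hbb-bt, a beta-globin gene that can share reads with its near-identical copies, had log2 ratios of 0.64 and 0.55. Nearest to Mfge8 were Ube2ql1, Chd5, Adam11, Trank1 and 2310022B05Rik, at distances of 0.02 to 0.09, with Ube2ql1 at -0.49 and -0.32 and Chd5 at -0.44 and -0.32. These pairs hold 2 values that share the floxed library.

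Prdm16 itself had 34.6 CPM in cKO 1 and 24.1 CPM in cKO 2, against 30.2 CPM in floxed. The total over the gene runs against the label of cKO 1. Which exon was deleted is not stated, so this total is a partial check, and every direction here refers to the libraries labelled cKO. The cKO libraries also differed in markers of other tissues, some of which express members. All 11 meningeal and fibroblast markers went in opposite directions, where 5.8% of tested genes did, with summed levels of 769 CPM in cKO 1 and 26.2 CPM in cKO 2, against 479 CPM in floxed. Endothelial markers (10) summed to 392 and 188 CPM in cKO, against 331 CPM in floxed. Pericyte and smooth muscle markers (8 tested) summed to 254 and 132 CPM in cKO, against 214 CPM in floxed, and choroid plexus markers (8) to 1102 and 336 CPM in cKO, against 1121 CPM in floxed. No tested marker of these 4 lists was at 0 in any library.

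Vimentin is also made by fibroblasts and endothelium, and its level in cKO 2, where these markers were lowest, was 874 CPM, against 858 CPM in cKO 1 where the meningeal and endothelial markers were highest. Mfge8, which vessel walls also express, was lower than floxed in cKO 1, where the pericyte markers were highest, and in cKO 2, where they were lowest. Slc1a3, Sox9, Sox2 and Nes were higher in cKO 1 than in cKO 2, as the meningeal markers were. The part of these other tissues in the level of any member, Vim and Mfge8 included, was not tested. In bulk tissue, fewer cells of a type and less RNA per cell cannot be told apart.

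**Figure D4:**
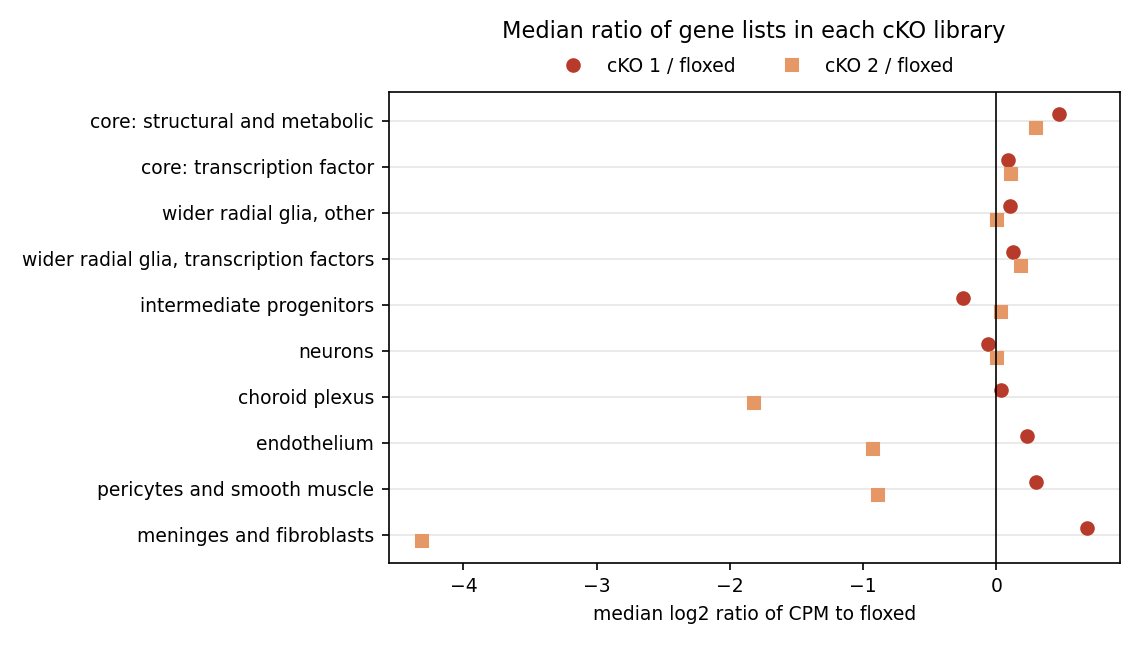
Median log2 ratio to floxed of each gene list in cKO 1 (circles) and cKO 2 (squares). The core radial glia lists stay between 0.08 and 0.47 in both libraries, while the meningeal list lies at 0.68 in cKO 1 and at -4.31 in cKO 2.

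Radial glia give rise to intermediate progenitors and neurons, and markers of both were read in the same libraries. The 8 intermediate progenitor markers summed to 704 and 809 CPM in cKO, against 825 CPM in floxed. By their counting intervals 1 was above floxed and 3 were below it in both libraries. Among all tested genes 5.18% were above and 7.55% below in both, and among those of at least 40 CPM 8.26% and 13.8%. Neurog2, a proneural factor and the list's gene with the most counts, had 142 and 183 CPM in cKO, against 165 CPM in floxed, on either side of it. Gadd45g, a stress-response gene of the list, was the one above floxed in both, with 56.5 and 89.2 CPM in cKO, against 50.4 CPM in floxed. Insm1, a zinc-finger factor of basal progenitors, had 144 and 141 CPM in cKO, against 200 CPM in floxed, and Eomes, the T-box factor that defines intermediate progenitors, 132 and 133 CPM in cKO, against 160 CPM in floxed. The 12 neuronal markers summed to 8688 and 8973 CPM in cKO, against 9041 CPM in floxed. Of these 2 were higher and 4 lower in both beyond counting error, to be read against the same shares. Tubb3, a neuronal tubulin gene and the one with the most counts, had log2 ratios to floxed of -0.06 and 0.11, on either side of it. Snap25, a synaptic SNARE gene, was higher in both, at 0.10 and 0.13, and Mapt, the axonal microtubule-binding protein gene tau, was lower in both, at -0.28 and -0.26.

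Markers of later glia and of microglia were read last. The astrocyte list had 7 tested members. Of these 1, Slc1a2, was higher in both libraries and 2 went in opposite directions, against 5.18% and 5.8% of tested genes. Gja1, the connexin 43 gene that fibroblasts also express, had 108 CPM in cKO 1 and 18.0 CPM in cKO 2, against 65.4 CPM in floxed. Of 4 oligodendrocyte precursor markers 0 moved one way in both libraries, with Olig2, a basic helix-loop-helix factor of that lineage, at 13.9 and 13.8 CPM in cKO and 13.2 CPM in floxed. The 6 microglial markers summed to 81.8 and 36.5 CPM in cKO, against 68.6 CPM in floxed.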

How the data were processed

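RNA from cortex was made into libraries with a TruSeq RNA kit, per the labels' protocols. Bowtie2 2.2.3, TopHat2 2.0.12, HTSeq 0.6.0 and mm9 are named in the submitters' processing notes, while the tables' positions of all 10 members equal GENCODE M21 (GRCm38), the build used here. Counting options are not stated. The authors deposited raw counts per gene, log2 folds and adjusted p-values, per the file headers. Columns were put in groups by KO or WT in their names, which do not show which of the 2 samples labelled with each genotype they hold. The floxed column was identical in both tables and used once, and the second floxed sample was not analysed here. The title of 1 sample of each genotype holds the word Blood, unexplained, and the design text speaks of triplicates.

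Tests on the genes in both tables used edgeR 4.0.16 (R 4.3.3, minimum count 10, library totals as sizes, quasi-likelihood, Benjamini-Hochberg over all genes, threshold 0.05). A common biological coefficient of variation of 0.224 was estimated. The fit was tested on simulated data with less spread than this estimate and with larger folds than those of the members. That test therefore says little about folds as small as these. Log2 ratios of 1 library used a pseudocount of 0.5 counts, and exact (Clopper-Pearson) 95% intervals cover counting error only. A count of 0 allows up to 0.154, 0.161 and 0.168 CPM (3 counts) in cKO 1, cKO 2 and floxed. TMM, DESeq2 1.42.0, limma-voom (limma 3.58.1), no filter and leaving out each cKO library were tried. Members and lists were chosen with earlier results of these data known, and 1 gene of these lists is not reported here, and counts and medians leave it out. All members were named. From each other list up to 4 genes with the most counts could be named, and which of these were named, like other genes of the lists (Hes1, Hes5, Hopx, Tnc, Ednrb, Ttyh1, Notch2, Sox3, Edil3, Gfap, Gadd45g and Snap25), was chosen after their values were seen. Start-site sequences are from RefSeq (GRCm38.p6).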

Additional observations from a re-analysis of the deposited data

How the results depend on the processing

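The count of genes called higher in cKO over all genes was 1 with library totals in edgeR and 1 in limma-voom. It was 0 with TMM factors, 0 with DESeq2 size factors, 0 without the filter on low counts and 5 in DESeq2. The cause was not tested. The count called lower was 0 in every one of these fits, with 144 genes at an unadjusted p under 0.05 in edgeR, 43 in DESeq2 and 166 in limma-voom. Across these 5 alternatives, all 50 values of the members kept their direction and stayed on the same side of the adjusted threshold, and no log2 fold moved by more than 0.02. Leaving out each cKO library gave medians of 0.084 to 0.11 for the transcription factors and 0.30 to 0.47 for the structural and metabolic genes, with no test. Of the members only Sox2 changed direction when a library was left out, with log2 ratios between -0.043 (without cKO 1) and 0.20 (without cKO 2). The floxed library could not be left out. No paired analysis was possible because the floxed group has 1 library, so no more than 1 pair could be formed. Each member had at least 792 counts in every library, and the comparisons rest on 2 cKO libraries and 1 floxed library.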
